A study of Homo sapiens with 12 samples.

Results

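The proteasome subunit genes were taken as every gene in the table whose symbol consists of PSMA, PSMB, PSMC or PSMD and a number, which gave 39 of 26475 genes. They comprise 14 genes of the constitutive 20S core, 17 genes of the 19S regulatory particle, 3 genes of 19S assembly chaperones, 3 genes of the immunoproteasome (PSMB8, PSMB9 and PSMB10) and 2 tissue-specific 20S genes (PSMA8 and PSMB11). After the filter on low counts 37 of the 39 remained, among 14582 genes in all. PSMA8, which belongs to the testis, had 0 counts in every library, and PSMB11, which belongs to the thymus cortex, had at most 1 count, so that neither could be tested. A floor of 3 counts corresponded to 0.0283 to 0.0581 CPM (the count scaled by its library's size) in these libraries.

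mRNA was sequenced from MIAPaCa2, an established cell line of pancreatic ductal adenocarcinoma, in 4 groups of 3 libraries: parental cells given vehicle, parental cells given sodium oxamate, oxamate-resistant cells given vehicle and oxamate-resistant cells given sodium oxamate. Oxamate is a competitive inhibitor of lactate dehydrogenase A, and the labels describe the groups as untreated or given the LDHA inhibitor. The resistant cells were a polyclonal population that survived 10 mM oxamate for 4 weeks, so each line was 1 population, and the dose and time of the treatment before RNA-seq were not given in the sources used here. Nothing in the labels says that replicates came from separate cultures, and p-values therefore measure the spread between these libraries.

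The proteasome degrades proteins tagged with ubiquitin. Its 20S core is a barrel of a pair of outer rings of alpha subunits, which gate the channel, and a pair of inner rings of beta subunits, of which PSMB5 (chymotrypsin-like activity), PSMB6 (caspase-like activity) and PSMB7 (trypsin-like activity) cut peptides. The 19S particle binds the ends of the core, where the ATPases PSMC1 to PSMC6 unfold the substrate and the lid removes ubiquitin. In immune cells and after interferon, PSMB8, PSMB9 and PSMB10 take the places of PSMB5, PSMB6 and PSMB7 in newly assembled cores, which changes the peptides offered to HLA class I molecules.

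The 12 libraries held 46698729 to 114222169 expected counts, and all parental libraries were deeper than all resistant libraries, so depth and cell line cannot be told apart. Replicate 3 of oxamate-treated parental cells and replicate 3 of vehicle-treated resistant cells stood apart by MALAT1, a nuclear-retained RNA, at 596 and 597 CPM, against 281 to 289 CPM and 244 to 273 CPM in the other replicates of their groups. Nuclear-retained RNA (MALAT1 and NEAT1 summed) also moved with line and treatment, at 317 to 353 CPM in vehicle-treated parental, 538 to 1171 in oxamate-treated parental, 528 to 1100 in vehicle-treated resistant and 1068 to 1391 in oxamate-treated resistant libraries, and its part in the results was not tested. It did not overlap between treatments of parental cells or between lines after vehicle, and overlapped in the other comparisons of groups. The 5 epithelial markers, through KRT8, KRT18 and KRT19, summed to 3279 to 3671 CPM in parental and 1759 to 1850 CPM in resistant libraries. EPCAM and CDH1 were at or under 3 counts in every library. VIM, the mesenchymal marker, lay at 9374 to 10110 CPM in parental and 5917 to 6365 CPM in resistant libraries. All 4 markers of exocrine pancreas and 2 of 3 leukocyte markers were at or under 3 counts in every library, and the leukocyte list summed to 2.15 to 5.03 CPM. The markers fixed for fibroblasts summed to 695 to 951 CPM through COL1A2, with DCN at or near 0.

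The constitutive subunits were abundant and unequal. Per kilobase of transcript, the 31 genes of the constitutive core and the 19S particle had a median level of 82.6 CPM per kb in vehicle-treated parental cells, from 14.5 for PSMD12, a lid subunit, to 301 for PSMA7, an alpha subunit, and 15 of the 31 lay within 2-fold of the median. By role, median levels were 196 CPM per kb for the non-catalytic beta subunits, 168 for the constitutive catalytic subunits, 106 for the alpha ring, 54.1 for the lid and 52.4 for the ATPases. The 3 immunoproteasome genes lay lower, with a median of 9.48 CPM per kb and a range of 7.68 to 18.8, and the highest of them, PSMB9, stood above PSMD12. These levels depend on the 1 annotated transcript whose length was used for each gene, 782 bases for PSMB9 and 4406 for PSMD12. Without division by length PSMB9 had 14.7 CPM and PSMD12 63.8 CPM. All 39 genes together took 0.503% ± 0.00638 (SD, n = 3) of the counts in vehicle-treated parental cells, 0.451% ± 0.00730 in oxamate-treated parental cells, 0.474% ± 0.00775 in vehicle-treated resistant cells and 0.475% ± 0.00246 in oxamate-treated resistant cells. The immunoproteasome genes took 0.00326% ± 0.000130, 0.00368% ± 9.95e-05, 0.00580% ± 0.000229 and 0.00576% ± 3.36e-05 in the same order. A share of this kind moves with every other gene in the library and was not tested.

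**Figure D1:**
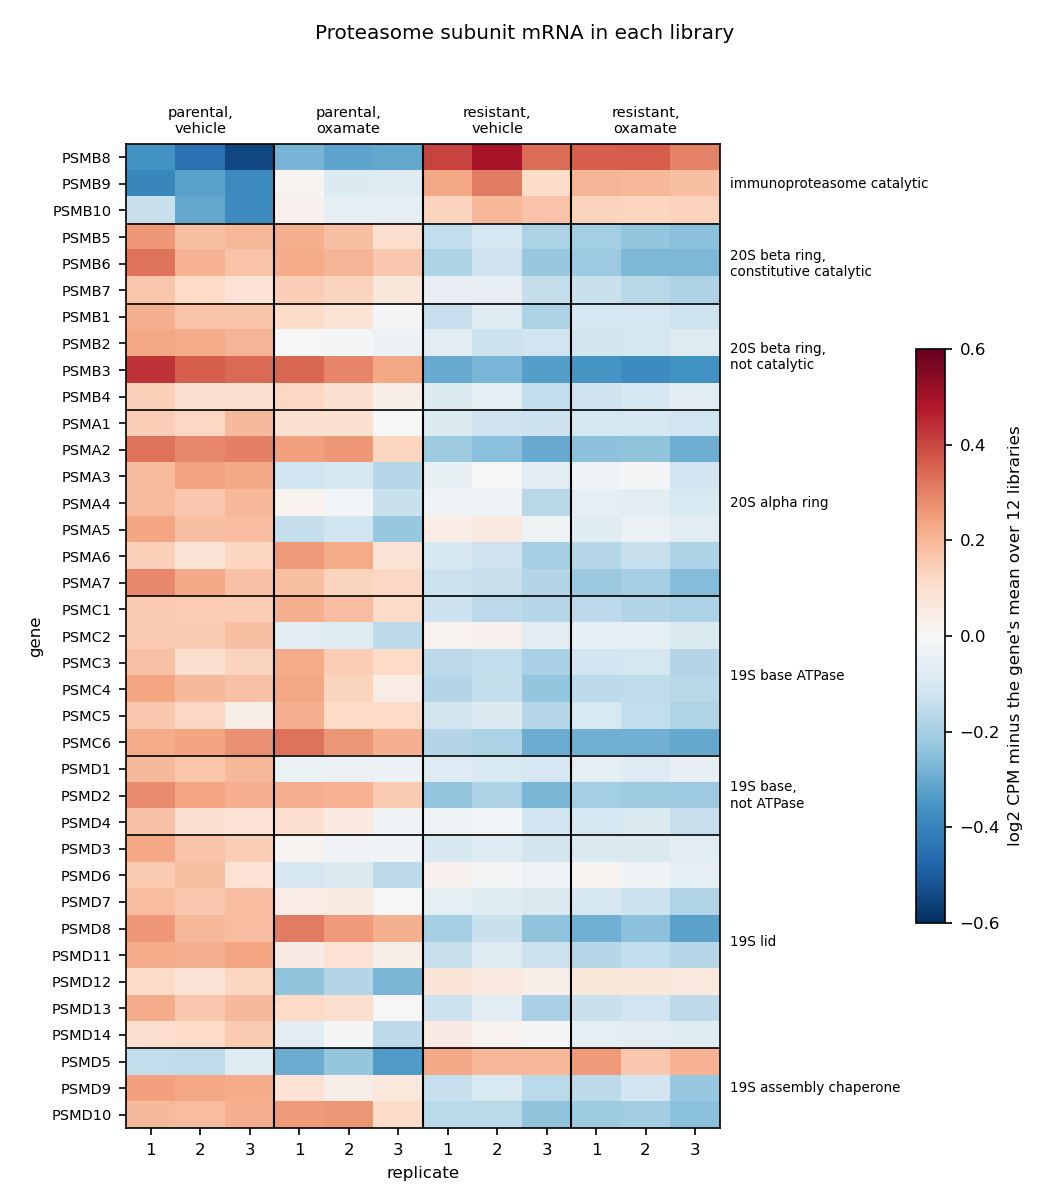
Each row is 1 of the 37 subunit genes tested, ordered by role, and each column is 1 library; colour shows log2 CPM minus the gene's mean over the 12 libraries. PSMB8, PSMB9, PSMB10 and PSMD5 are high in the resistant libraries, and most other subunits are high in vehicle-treated parental libraries on this TMM scale.

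The comparison of resistant with parental cells after vehicle shows what set the resistant line apart without the drug. In it all 3 immunoproteasome genes were higher in resistant cells, while 32 of the 34 other genes tested were lower on the TMM scale used here, on which library size alone instead gives 19 of all 37 lower. The remaining 2 were PSMD5, a chaperone of 19S base assembly, which was higher, and PSMD12, which was not called (log2 fold change -0.05 ± 0.03 (SE), adjusted p = 0.0995). In all, 4 genes were called higher and 32 lower at an adjusted p under 0.05, while 38.4% and 37.3% of all genes tested were called higher and lower.

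PSMB8, the inducible counterpart of PSMB5, lies on chromosome 6 at chr6:32840717-32844679 (GRCh38, minus strand). It measured 9.19, 8.64 and 8.07 CPM in the vehicle-treated parental libraries and 15.6, 16.6 and 14.9 CPM in the vehicle-treated resistant libraries, so that the groups did not overlap. It was 1.81-fold higher in resistant cells, a log2 fold change of 0.86 ± 0.05 (SE, adjusted p = 6.03e-10). PSMB9, the counterpart of PSMB6, starts on the opposite strand at chr6:32854192-32859851. Its levels were 14.5, 15.2 and 14.5 CPM in parental and 22.2, 23.5 and 20.4 CPM in resistant cells, again without overlap. Its log2 fold change was 0.58 ± 0.05 (adjusted p = 1.78e-08). PSMB10, the counterpart of PSMB7 at chr16:67934506-67936850, rose from 12.7, 11.2 and 10.7 CPM to 15.3, 16.0 and 15.6 CPM. Its groups did not overlap and its log2 fold change was 0.43 ± 0.05 (adjusted p = 2.56e-06).

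The reads carry no strand, so sense and antisense reads cannot be told apart. Over the exons of all their transcripts in GENCODE release 29, PSMB8 and PSMB9 share 139 bases, although the RefSeq coordinates given above do not overlap. Counted in the same way, PSMB8 shares 618 exonic bases with PSMB8-AS1. PSMB8-AS1 had 0.373 CPM in vehicle-treated parental and 1.02 CPM in vehicle-treated resistant cells, far below PSMB8. Over 2 libraries the PSMB8 count was not whole, which marks reads shared between transcripts. The counts of PSMB7, PSMC5 and PSMD4 were not whole in any of the 12 libraries. Some constitutive subunits share more exonic bases with a gene on the other strand. Among them were PSMC1 with NRDE2 (4671 bases), PSMA2 with AC010132.2 (1043 bases) and PSMC5 with FTSJ3 (874 bases).

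The sequence before the start of each immunoproteasome gene and of PSMB5 is given below because these genes moved in opposite directions. Each line holds the 250 bases before the RefSeq start on the gene's own strand, 5′ to 3′, with matches to any of 5 motifs in capitals. The windows are chr6:32844680-32844929 for PSMB8, chr6:32853942-32854191 for PSMB9, chr16:67936851-67937100 for PSMB10 and chr14:23035221-23035470 for PSMB5 (RefSeq, GRCh38.p14), on the minus strand except PSMB9. PSMB6 and PSMB7 are named only.
PSMB8: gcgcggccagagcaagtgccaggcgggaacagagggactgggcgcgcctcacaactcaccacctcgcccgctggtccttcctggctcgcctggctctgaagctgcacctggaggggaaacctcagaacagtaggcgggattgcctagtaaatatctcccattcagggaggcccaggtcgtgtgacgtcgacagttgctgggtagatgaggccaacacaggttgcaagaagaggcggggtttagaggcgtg
PSMB9: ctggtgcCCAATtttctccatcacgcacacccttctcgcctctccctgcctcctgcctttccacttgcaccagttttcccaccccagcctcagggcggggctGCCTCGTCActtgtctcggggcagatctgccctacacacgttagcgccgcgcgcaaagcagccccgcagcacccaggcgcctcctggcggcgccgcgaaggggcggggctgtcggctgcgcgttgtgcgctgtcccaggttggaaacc
PSMB10: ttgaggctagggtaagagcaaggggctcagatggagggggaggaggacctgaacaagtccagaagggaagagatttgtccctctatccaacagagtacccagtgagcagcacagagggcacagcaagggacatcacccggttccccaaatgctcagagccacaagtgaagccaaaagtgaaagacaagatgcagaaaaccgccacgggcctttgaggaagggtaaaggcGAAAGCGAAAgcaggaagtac
PSMB5: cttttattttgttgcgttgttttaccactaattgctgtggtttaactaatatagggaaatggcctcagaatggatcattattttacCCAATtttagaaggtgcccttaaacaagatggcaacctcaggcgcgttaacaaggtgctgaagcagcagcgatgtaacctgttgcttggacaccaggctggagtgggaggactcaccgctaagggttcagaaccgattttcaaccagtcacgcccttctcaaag
The motifs were searched on both strands. They were TTCNNNGAA, the palindrome bound by STAT dimers, the IRF core (GAAA, any 2 bases and GAAA), read by interferon regulatory factors, TGACNNNGC, the core of the antioxidant response element, CCAAT, and CCGGAAG, an ETS core.

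The IRF core occurred in the PSMB10 window as GAAAGCGAAA, from 21 to 12 bases before the start. The PSMB9 window held TGACNNNGC on the opposite strand and CCAAT, the PSMB5 window held CCAAT, and the PSMB8 window held none of the 5. Of the 34 subunit genes with a window, the IRF core was found in 3 (8.82%, against 3.07% of 27305 windows of all genes) and TTCNNNGAA in 4 (11.8% against 6.78%). TGACNNNGC was found in 6 (17.6% against 11.0%), CCGGAAG in 8 (23.5% against 8.82%) and CCAAT in 16 (47.1% against 33.0%). These are matches of letters and not sites, and a window without a match says only that the letters are absent from it. The PSMB9 start faces that of TAP1, the peptide transporter of the class I pathway, 488 bases away on the opposite strand. After vehicle TAP1 was higher in resistant cells by 0.13 ± 0.03 on the log2 scale (adjusted p = 0.000879), against 0.58 for PSMB9. Under oxamate TAP1 was lower by -0.09 ± 0.03 (adjusted p = 0.0160), but higher by 0.24 with library size alone, while PSMB9 was higher by 0.24 on the TMM scale.

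Among the genes that were lower, the range reached from -0.68 for PSMB3 to -0.10 for PSMD14 on the log2 scale, and the median over all 37 genes was -0.28, against 0.03 over all genes tested. All 14 genes of the constitutive core and 16 of the 17 genes of the 19S particle were called lower, as were the chaperones PSMD9 and PSMD10. PSMB3, a non-catalytic beta subunit, had the lowest value, with 179, 170 and 168 CPM in parental and 108, 110 and 106 CPM in resistant libraries. Its log2 fold change was -0.68 ± 0.03 (adjusted p = 1.88e-11). PSMA2, an alpha subunit, went from 193, 188 and 189 CPM to 132, 129 and 125 CPM, a log2 fold change of -0.56 ± 0.03 (adjusted p = 4.03e-10). PSMD2, a scaffold of the 19S base and the subunit with the highest CPM, went from 648, 629 and 620 CPM to 455, 470 and 441 CPM, a log2 fold change of -0.48 ± 0.03 (adjusted p = 2.87e-10). None of these 3 genes had overlapping groups, which was a condition for naming them.

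The constitutive catalytic subunits were lower as well. PSMB5 measured 154, 145 and 147 CPM in vehicle-treated parental libraries and 116, 120 and 113 CPM in vehicle-treated resistant libraries, a log2 fold change of -0.36 ± 0.03 (adjusted p = 6.16e-08). PSMB6 measured 152, 140 and 137 CPM against 107, 112 and 104 CPM, a log2 fold change of -0.42 ± 0.04 (adjusted p = 4.49e-08). PSMB7, whose counts were not whole in any of the 12 libraries, measured 285, 276 and 270 CPM against 245, 246 and 230 CPM, a log2 fold change of -0.21 ± 0.03 (adjusted p = 2.24e-05). Each of the 3 catalytic positions thus had its constitutive gene lower and its inducible gene higher, except that PSMB7 stood at 0.01 with library size alone. Past an unadjusted p of 0.05 and a fold of 1.5, which 23.4% of all genes passed, stood 2 subunit genes, PSMB8 and PSMB3.

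**Figure D2:**
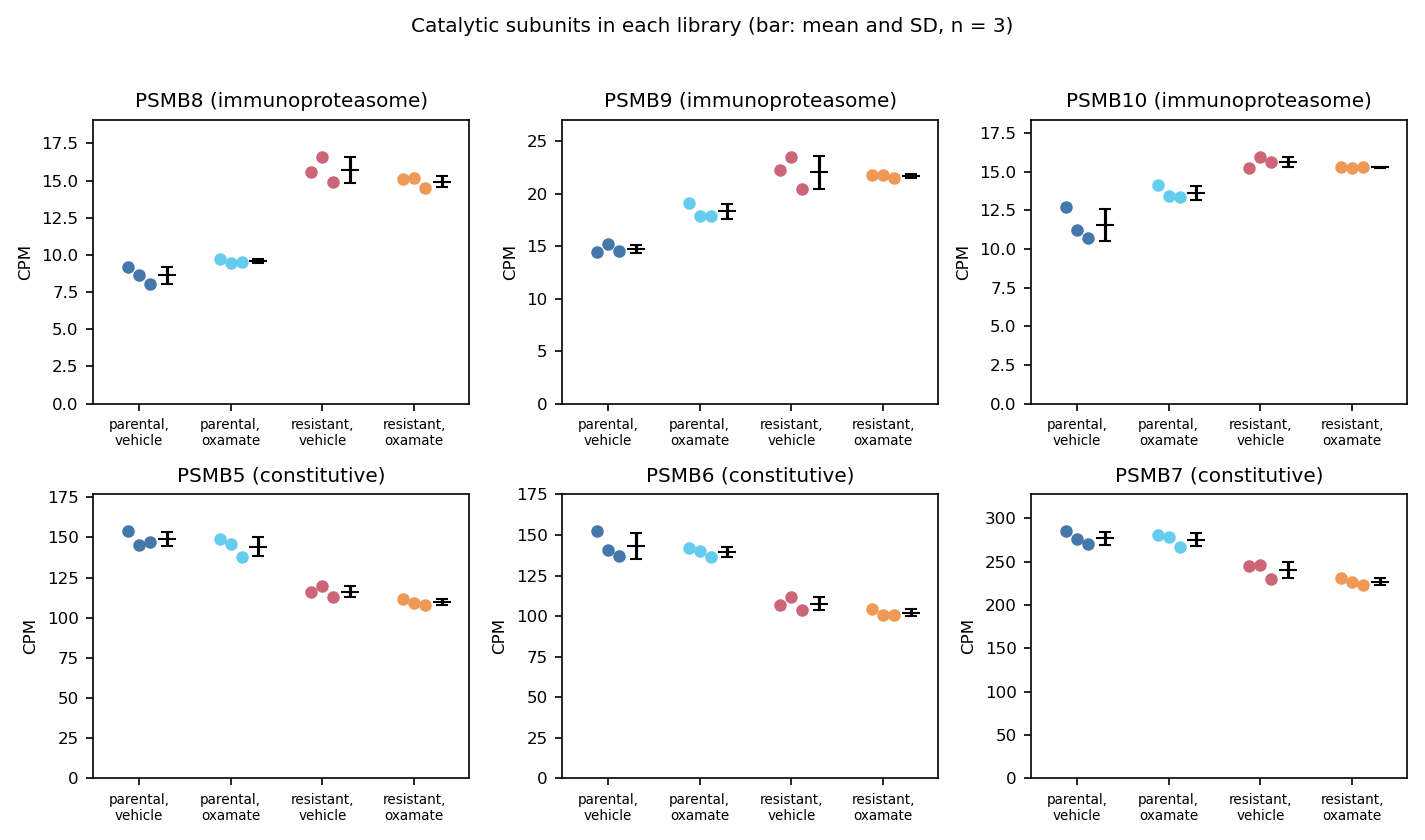
CPM of each catalytic subunit (y axis, from 0) in the 4 groups (x axis); points are libraries and the black bar is the mean with SD (n = 3). PSMB8 lies between 8.07 and 9.73 CPM in the parental libraries and between 14.5 and 16.6 CPM in the resistant libraries, while PSMB5 and PSMB6 lie lower in every resistant library than in any parental library, in direction also with library size alone.

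The direction of the constitutive subunits depends on the scale. TMM factors ran from 0.878 to 0.937 in parental and from 1.08 to 1.12 in resistant libraries. When libraries were scaled by their totals without TMM factors, the median of all genes tested moved from 0.03 to 0.24 after vehicle and from 0.01 to 0.34 under oxamate. On that scale 7 subunit genes were called higher and 19 lower after vehicle, and 22 higher and 8 lower under oxamate. Relative to the median of all genes, the subunits' median was -0.30 after vehicle with either scaling. The choice of scaling moves all genes by nearly the same amount, so this match was fixed in advance and is no check of the decrease. The 3 immunoproteasome genes were higher with either scaling, at 1.08, 0.80 and 0.65 for PSMB8, PSMB9 and PSMB10 with library size alone.

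**Figure D3:**
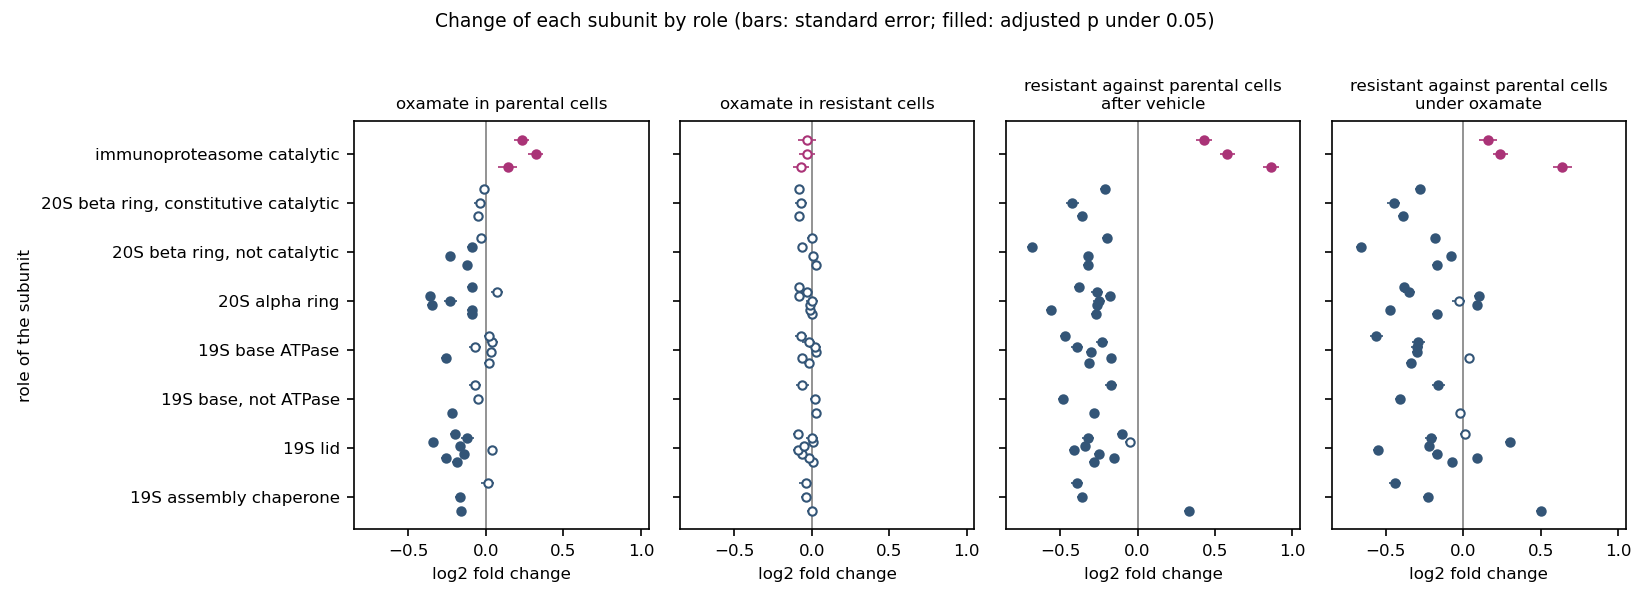
Log2 fold change (x axis) of each subunit gene by its role (y axis) in the 4 comparisons, with SE bars; filled points have an adjusted p under 0.05. The immunoproteasome genes stand to the right of 0 in 3 comparisons, the constitutive subunits mostly to the left in the comparisons between lines (on the TMM scale; under oxamate 22 genes are higher with library size alone), and no point is filled for oxamate in resistant cells.

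Under oxamate the same contrast between the lines compared 6 other libraries. The immunoproteasome genes were again higher in resistant cells, and the constitutive subunits divided. Of the 37 genes 8 were called higher and 25 lower, against 40.6% and 39.7% of all genes tested, and the subunits' median was -0.18 with 0.01 for all genes. In both comparisons between lines 25 genes were called lower and 4 were called higher, namely PSMB8, PSMB9, PSMB10 and PSMD5. Lower after vehicle and higher under oxamate were 3 genes, PSMA3, PSMA5 and PSMD6, on the TMM scale, while with library size alone they stood at -0.04, 0.04 and 0.07 after vehicle. Past the fold of 1.5 with an unadjusted p under 0.05, as for 34.3% of all genes, stood PSMB8 and PSMB3. With library size alone 22 genes were called higher and 8 lower and the subunits' median was 0.14. Relative to all genes it was -0.20 with either scaling, a match that was likewise fixed in advance.

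PSMB8 measured 9.73, 9.48 and 9.52 CPM in oxamate-treated parental and 15.1, 15.2 and 14.5 CPM in oxamate-treated resistant libraries, a log2 fold change of 0.64 ± 0.06 (adjusted p = 1.91e-08). For PSMB9 the values were 19.2, 17.9 and 17.9 CPM against 21.8, 21.8 and 21.5 CPM (0.24 ± 0.05, adjusted p = 0.000275), and for PSMB10 they were 14.2, 13.4 and 13.4 CPM against 15.3, 15.2 and 15.3 CPM (0.16 ± 0.06, adjusted p = 0.0137). The groups did not overlap for any of the 3. PSMD5 measured 50.5, 52.8 and 49.1 CPM against 74.3, 69.5 and 71.9 CPM, a log2 fold change of 0.50 ± 0.03 (adjusted p = 7.66e-10). After vehicle it had measured 56.1, 55.9 and 58.8 CPM against 72.7, 71.2 and 71.3 CPM (0.33 ± 0.03, adjusted p = 1.26e-07). PSMD12 measured 50.1, 52.4 and 48.9 CPM against 62.1, 62.0 and 61.6 CPM (0.30 ± 0.03, adjusted p = 8.15e-08). Every resistant library thus exceeded every parental library for both genes under oxamate, as the rule for naming them required.

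At the lower end PSMB3 measured 169, 163 and 156 CPM in parental and 104, 102 and 103 CPM in resistant libraries under oxamate, and its log2 fold change was -0.66 ± 0.03 (adjusted p = 1.52e-11). PSMC6, an ATPase of the base, measured 93.7, 89.9 and 86.6 CPM against 61.3, 61.3 and 60.3 CPM (-0.56 ± 0.04, adjusted p = 3.74e-10). PSMD8, a lid subunit, measured 251, 241 and 234 CPM against 165, 170 and 162 CPM (-0.55 ± 0.03, adjusted p = 2.73e-10). None of these 3 genes overlapped between the lines, again a condition for naming them. The constitutive catalytic genes were lower by -0.39 ± 0.03 for PSMB5 (adjusted p = 1.45e-08), -0.45 ± 0.04 for PSMB6 (adjusted p = 1.29e-08) and -0.28 ± 0.03 for PSMB7 (adjusted p = 6.2e-07). The calls of PSMA3, PSMA5 and PSMD6, with log2 fold changes of 0.09, 0.10 and 0.09, were lost without replicate 3 of oxamate-treated parental cells (0.06, 0.07 and 0.07), and 5 genes instead of 8 were then called higher. Those of PSMA3 and PSMD6 were also lost without replicate 1 of oxamate-treated resistant cells (0.07 each), and that of PSMA3 without their replicate 2 (0.07).

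Beside PSMD5, the antisense gene PSMD5-AS1 was higher in resistant cells, at 3.82 CPM in vehicle-treated parental and 13.0 CPM in vehicle-treated resistant cells, with log2 fold changes of 1.76 ± 0.05 after vehicle (adjusted p = 6.16e-14) and 1.85 ± 0.05 under oxamate (adjusted p = 1.89e-14). GENCODE release 29 gives no exonic overlap of PSMD5 with a gene on the other strand. PSMD5-AS1 and PSMB8-AS1 were chosen for naming after their values had been seen.

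Exposure of parental cells to oxamate shows the response of cells that had not been selected. All 3 immunoproteasome genes were called higher and no other subunit was, while 20 of the other 34 were called lower, against 28.3% and 30.4% of all genes tested in the respective direction. The changes were small, from -0.36 to 0.32 on the log2 scale with a median of -0.09, against 0.00 over all genes, and none of the 37 genes passed the fold of 1.5 with an unadjusted p under 0.05, which 9.88% of all genes did. By role, 6 of 7 alpha subunits, 7 of 8 lid subunits and 3 of 4 non-catalytic beta subunits were called lower, but 1 of 6 ATPases (PSMC2) and none of the 3 constitutive catalytic genes. The list of ATPases had a median of 0.02. This contrast between roles depends on the scale: with library size alone 28 genes were called lower and 2 higher, the 3 constitutive catalytic genes were called lower (-0.12, -0.12 and -0.08 for PSMB5, PSMB6 and PSMB7) and the median of the ATPases was -0.06.

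PSMB9 measured 19.2, 17.9 and 17.9 CPM with oxamate against 14.5, 15.2 and 14.5 CPM with vehicle, a log2 fold change of 0.32 ± 0.05 (adjusted p = 4.53e-05). PSMB10 measured 14.2, 13.4 and 13.4 CPM against 12.7, 11.2 and 10.7 CPM (0.23 ± 0.05, adjusted p = 0.00178). The value for PSMB8 was 9.73, 9.48 and 9.52 CPM against 9.19, 8.64 and 8.07 CPM (0.14 ± 0.06, adjusted p = 0.0384). The groups did not overlap for any of them, but the PSMB8 call held in only 12 of 23 alternatives, with adjusted p from 0.012 to 0.275, and was lost with DESeq2, with limma-voom and without any 1 of 5 libraries (log2 fold changes of 0.10 to 0.15). PSMB5, PSMB6 and PSMB7 had log2 fold changes of -0.05 ± 0.03 (adjusted p = 0.225), -0.04 ± 0.04 (adjusted p = 0.357) and -0.01 ± 0.03 (adjusted p = 0.841).

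The subunits that fell most were PSMA5, PSMA3 and PSMD12. PSMA5, an alpha subunit, measured 106, 102 and 102 CPM with vehicle and 81.6, 82.9 and 77.0 CPM with oxamate, a log2 fold change of -0.36 ± 0.03 (adjusted p = 9.8e-08). PSMA3, another alpha subunit, measured 70.8, 73.3 and 72.6 CPM against 57.0, 57.5 and 55.0 CPM (-0.35 ± 0.03, adjusted p = 1.57e-07). PSMD12 measured 64.1, 62.7 and 64.6 CPM against 50.1, 52.4 and 48.9 CPM (-0.34 ± 0.03, adjusted p = 5.67e-08). Each of the 3 was lower in every oxamate library than in any vehicle library, which was a condition for naming them. PSMD5 fell by 0.16 on the log2 scale (adjusted p = 0.000518). Across the 37 genes, the change with oxamate in parental cells had a Spearman correlation of -0.45 with transcript length, against -0.17 across 12684 genes with a length. All points share the same 6 libraries and the part of length in the result was not tested.

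In resistant cells, the comparison of oxamate with vehicle asks whether selected cells still respond to the drug. No subunit gene was called by edgeR, against 9.01% of all genes called higher and 12.5% called lower. At an unadjusted p under 0.05 there were 7 genes, DESeq2 called 2 and limma-voom 0, and none passed the fold of 1.5, which 2.5% of all genes did with an unadjusted p under 0.05. The shares of all genes at that p without the fold, or called by DESeq2 or limma-voom, were not computed. Log2 fold changes ran from -0.09 to 0.03 with a median of -0.03, against 0.00 over all genes. PSMB8 measured 15.6, 16.6 and 14.9 CPM with vehicle and 15.1, 15.2 and 14.5 CPM with oxamate, PSMB9 measured 22.2, 23.5 and 20.4 CPM against 21.8, 21.8 and 21.5 CPM, and PSMB10 measured 15.3, 16.0 and 15.6 CPM against 15.3, 15.2 and 15.3 CPM. The groups overlapped for each of them, with log2 fold changes of -0.07 ± 0.05 (adjusted p = 0.336), -0.03 ± 0.05 (adjusted p = 0.739) and -0.03 ± 0.06 (adjusted p = 0.703).

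The constitutive catalytic genes had log2 fold changes of -0.08 ± 0.03 for PSMB5 (adjusted p = 0.0893), -0.07 ± 0.04 for PSMB6 (adjusted p = 0.175) and -0.08 ± 0.03 for PSMB7 (adjusted p = 0.0827). Without the 2 libraries that stood apart from their own groups in nuclear-retained RNA 9 subunit genes were called lower, and 6 were without either one of them, replicate 3 of vehicle-treated resistant cells or replicate 3 of oxamate-treated parental cells. The count of 0 therefore depends on these libraries, while all 3 oxamate-treated resistant libraries, kept in these fits, had like levels of that RNA. PSMB5 and PSMB7 then had log2 fold changes of -0.11 each without both. The share of all genes called without these libraries was not computed, so the counts of 9 and 6 cannot be set against it.

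Whether the lines differed in their response to oxamate was tested in the same model. The difference, resistant minus parental, was positive for 13 genes and negative for 4, against 22.7% and 21.4% of all genes tested. All 13 positive genes were called lower with oxamate in parental cells, and no subunit was called in resistant cells. A positive value here thus marks a smaller fall, or no fall, in resistant cells. PSMD12, for example, changed by -0.34 in parental and 0.01 in resistant cells. The 4 negative genes were PSMB8, PSMB9, PSMB10 and PSMD8. None exceeded a 1.5-fold difference with an unadjusted p under 0.05, as 8.48% of all genes did. The largest differences were those of PSMD12 (0.35 ± 0.04, adjusted p = 4.56e-06), PSMA3 (0.34 ± 0.05, adjusted p = 2.24e-05) and PSMA5 (0.28 ± 0.05, adjusted p = 0.000106), and at the other end PSMB9 (-0.34 ± 0.07, adjusted p = 0.000796), PSMB10 (-0.27 ± 0.08, adjusted p = 0.0110) and PSMB8 (-0.22 ± 0.08, adjusted p = 0.0314).

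The PSMB8 difference held in 15 of 22 alternatives, with adjusted p from 0.0109 to 0.227, and was lost without replicate 2 or 3 of vehicle-treated parental cells (-0.21 and -0.18), replicate 1 of oxamate-treated parental cells (-0.21), replicate 2 of vehicle-treated resistant cells (-0.17) or replicate 3 of oxamate-treated resistant cells (-0.19). The PSMD8 difference of -0.14 ± 0.05 (adjusted p = 0.0254) was lost without any 1 of the same 5 libraries (-0.13 to -0.11). With library size alone the difference was positive for 25 genes and negative for 1, PSMB9. For PSMB5, PSMB6 and PSMB7 it was -0.04 ± 0.05 (adjusted p = 0.571), -0.03 ± 0.05 (adjusted p = 0.642) and -0.07 ± 0.04 (adjusted p = 0.208).

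**Figure D4:**
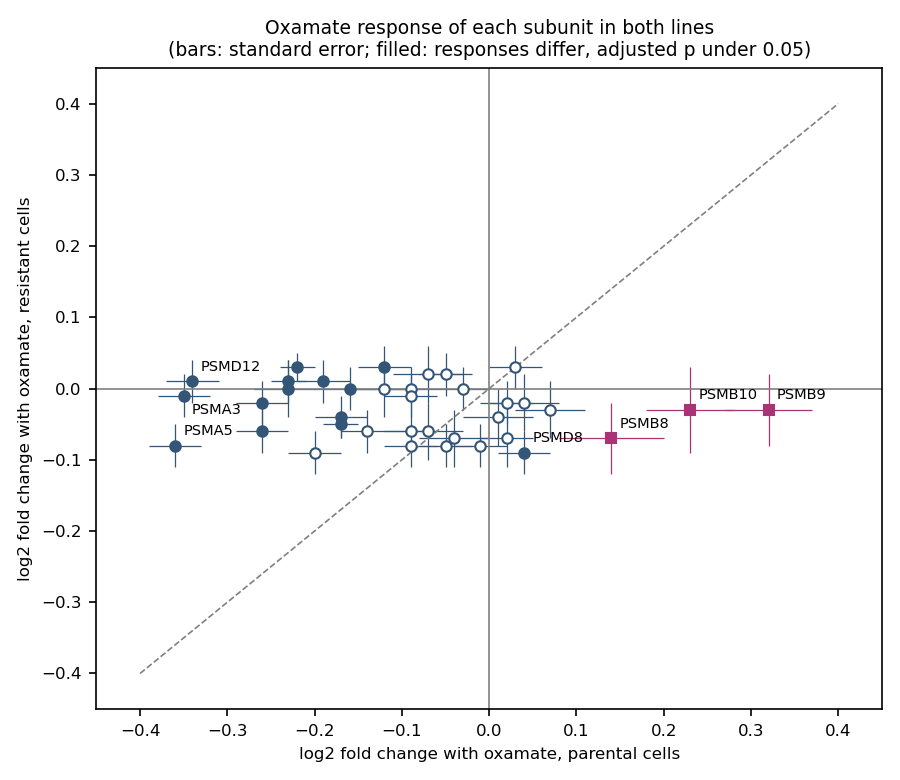
Log2 fold change with oxamate in parental cells (x axis) against that in resistant cells (y axis) for the 37 subunit genes, with SE bars; squares are the immunoproteasome genes, filled points are genes whose responses differ at an adjusted p under 0.05, and the dashed line marks equal responses. The points spread from -0.36 to 0.32 along the x axis and from -0.09 to 0.03 along the y axis.

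A ratio of 2 genes within a library needs no scaling factor. The log2 ratio of PSMB8 to PSMB5 counts was -4.06, -4.07 and -4.19 in vehicle-treated parental libraries, -3.94, -3.94 and -3.85 in oxamate-treated parental, -2.90, -2.85 and -2.92 in vehicle-treated resistant and -2.88, -2.85 and -2.90 in oxamate-treated resistant libraries. It was thus 1.22 ± 0.05 (SE) higher in resistant cells after vehicle, a 2.33-fold change, and 1.03 ± 0.03 higher under oxamate. For PSMB9 to PSMB6 the means were -3.28, -2.93, -2.29 and -2.24 in the same order of groups, and the lines differed by 1.00 ± 0.06 after vehicle and 0.69 ± 0.03 under oxamate. For PSMB10 to PSMB7 they were -4.59, -4.34, -3.94 and -3.89, and the lines differed by 0.65 ± 0.06 and 0.44 ± 0.03.

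All 6 of these differences between lines were without overlap and reached p = 0.1 in the exact two-sided permutation test, the smallest value that 3 against 3 libraries allow, so that none could pass 0.05. The same held for the 3 ratios with oxamate in parental cells, which were higher by 0.20 ± 0.05, 0.35 ± 0.06 and 0.25 ± 0.05. In resistant cells the ratios overlapped between treatments and differed by 0.01 ± 0.03 (exact p = 0.7), 0.05 ± 0.03 (exact p = 0.2) and 0.05 ± 0.04 (exact p = 0.3). Of these 12 tests none passes 0.05 before or after adjustment. Per kilobase of transcript, PSMB8 amounted to 6.68% ± 0.323 (SD, n = 3) of PSMB5 in vehicle-treated parental and 15.6% ± 0.380 in vehicle-treated resistant cells, PSMB9 to 11.2% ± 0.760 and 22.3% ± 0.802 of PSMB6, and PSMB10 to 3.35% ± 0.207 and 5.24% ± 0.237 of PSMB7. The constitutive gene was the more abundant of each pair in all 4 groups.

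**Figure D5:**
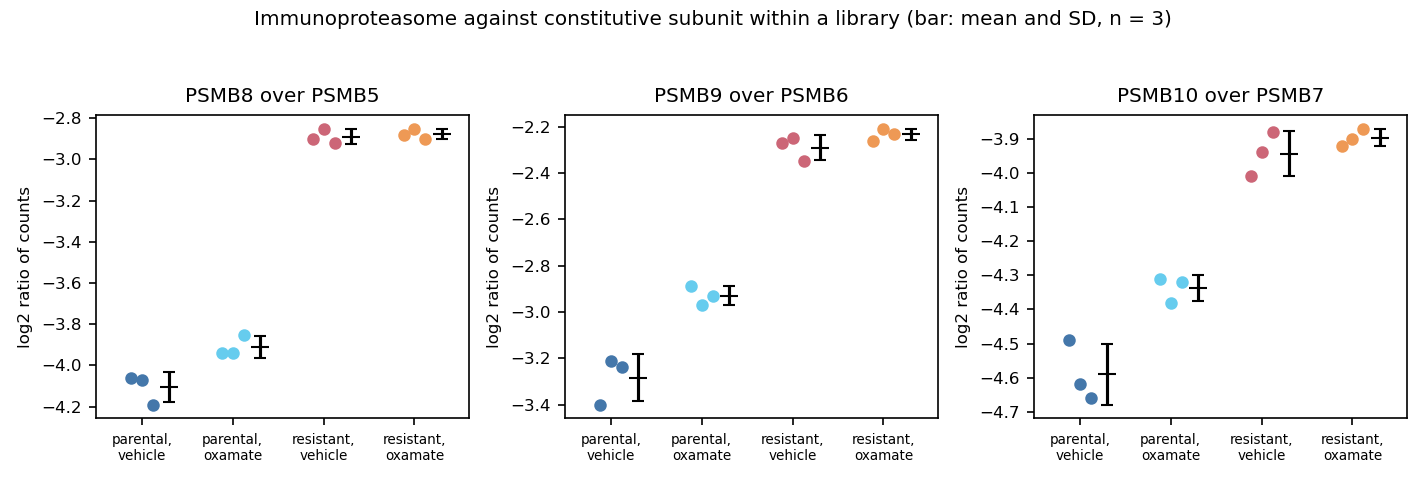
Log2 ratio of counts of each immunoproteasome gene to its constitutive counterpart within a library (y axis) in the 4 groups (x axis); points are libraries and the bar is the mean with SD (n = 3). For every pair the resistant libraries lie above all parental libraries, and oxamate-treated parental libraries lie above vehicle-treated ones.

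The departure of a subunit from its fellows can also be read within a library, as its log2 CPM minus the median of the 31 constitutive core and 19S genes. On this measure PSMB8, PSMB9, PSMB10 and PSMD5 stood higher in vehicle-treated resistant than parental cells by 1.18 ± 0.06, 0.90 ± 0.06, 0.76 ± 0.07 and 0.65 ± 0.03. Under oxamate the values were 0.95 ± 0.02, 0.55 ± 0.01, 0.47 ± 0.02 and 0.81 ± 0.05. PSMB3 stood lower by -0.36 ± 0.02 and -0.35 ± 0.02. PSMD12 also stood higher, by 0.26 ± 0.01 after vehicle and by 0.60 ± 0.05 under oxamate, where it exceeded PSMB9 and PSMB10. Under oxamate PSMA5, PSMD6 and PSMA3 stood higher by 0.41 ± 0.04, 0.40 ± 0.03 and 0.39 ± 0.04, and PSMC6 and PSMD8 lower by -0.25 ± 0.02 and -0.24 ± 0.03. In each of these cases the groups did not overlap, but lack of overlap was common among the subunits in both directions. The values are descriptions without a test.

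The other genes of the pathway were counted by list. After vehicle, when 38.4% of all genes were called higher and 37.3% lower, of 7 further proteins bound to the proteasome 2 were called higher and 4 lower in resistant cells, of 5 alternative caps and inhibitors 0 and 2, and of 5 assembly chaperones of the 20S core 0 and 3. POMP, which acts in joining the rings of the core, was lower by -0.49 ± 0.04 (adjusted p = 3.69e-09), and SHFM1, a small lid subunit also named SEM1, by -0.56 ± 0.04 (adjusted p = 3.3e-09). Both were lower under oxamate too, by -0.49 ± 0.04 (adjusted p = 3.48e-09) and -0.57 ± 0.04 (adjusted p = 1.6e-09). With library size alone POMP stood at -0.27 and -0.16 and SHFM1 at -0.34 and -0.25. Under oxamate, with 40.6% and 39.7% of all genes called, the 3 lists gave 3 higher and 4 lower, 2 and 2, and 1 and 3.

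NFE2L1, the factor that raises proteasome genes when proteasome activity falls short, was lower in resistant cells by -0.29 ± 0.02 after vehicle (adjusted p = 1.28e-08) and by -0.60 ± 0.02 under oxamate (adjusted p = 1.43e-12), but by only -0.08 and -0.27 with library size alone. With oxamate it was higher in parental cells by 0.17 ± 0.02 (adjusted p = 1.1e-05) and lower in resistant cells by -0.13 ± 0.02 (adjusted p = 0.0017). NFE2L2, its relative in the oxidative stress response, was lower with oxamate in both lines, by -0.23 ± 0.03 (adjusted p = 8.96e-07) and -0.16 ± 0.03 (adjusted p = 0.000592). Of 8 genes of the NFE2L1 pathway, 3 were called higher and 4 lower with oxamate in parental cells, 1 and 2 with oxamate in resistant cells, 2 and 5 between the lines after vehicle, and 4 and 4 between the lines under oxamate. The shares of all genes called higher and lower were 28.3% and 30.4%, 9.01% and 12.5%, 38.4% and 37.3%, and 40.6% and 39.7% in the same order. VCP, the ATPase that extracts proteins from membranes, and its cofactor NPLOC4 fell with oxamate in parental cells by -0.37 ± 0.02 (adjusted p = 2.8e-09) and -0.31 ± 0.03 (adjusted p = 3.88e-08), and NPLOC4 was higher in resistant cells under oxamate by 0.68 ± 0.03 (adjusted p = 5.61e-13). UFD1L, of the same list, went the other way between the lines. Its means were 61.4 CPM in parental and 42.6 CPM in resistant cells after vehicle, and 62.4 and 43.5 CPM under oxamate.

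PSME1, a part of the cap that joins immunoproteasomes, was higher with oxamate in parental cells by 0.25 ± 0.03 (adjusted p = 9.54e-07) and PSME3, its nuclear relative, lower by -0.31 ± 0.03 (adjusted p = 9.8e-08). PSME2, the other part of the PSME1 cap, did not move there (0.00 ± 0.03, adjusted p = 0.947). It was lower with oxamate in resistant cells (-0.11 ± 0.03, adjusted p = 0.0135) and in resistant cells after vehicle (-0.26 ± 0.03, adjusted p = 2.64e-07). Of the 5 alternative caps and inhibitors, 1 was called higher and 3 lower with oxamate in parental cells, against 28.3% and 30.4% of all genes. The responses of the lines differed for PSME1 and PSME3, by -0.27 ± 0.04 (adjusted p = 3.79e-05) and 0.35 ± 0.04 (adjusted p = 3.46e-06).

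Genes of class I antigen processing load the peptides that the proteasome makes onto HLA molecules. With oxamate in parental cells 11 of 13 were called higher and 1 lower, against 28.3% and 30.4% of all genes, with a median log2 fold change of 0.26 (0.18 with library size alone). HLA-B and HLA-C, which present peptides, were higher by 0.48 ± 0.03 (adjusted p = 2.65e-09) and 0.52 ± 0.04 (adjusted p = 2.76e-08). In resistant cells given oxamate 0 were called higher and 3 lower, against 9.01% and 12.5% of all genes. Between the lines 4 were higher and 7 lower after vehicle, and 1 higher and 11 lower under oxamate, against 38.4% and 37.3%, and 40.6% and 39.7%, of all genes, and the list's median of -0.09 after vehicle turned to 0.13 with library size alone. Lower in both was CALR, a chaperone of class I folding, lower by -0.63 ± 0.02 (adjusted p = 6.44e-13) and -0.87 ± 0.02 (adjusted p = 7.05e-15). The responses of the lines differed for 12 of the 13, all negative, against 21.4% of all genes, among them HLA-B (-0.50 ± 0.04, adjusted p = 2.04e-07) and HLA-C (-0.56 ± 0.06, adjusted p = 1.37e-06).

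Of the 7 interferon regulators, 3 were called higher and 1 lower in resistant cells after vehicle, and 4 and 2 under oxamate, against 38.4% and 37.3%, and 40.6% and 39.7%, of all genes. IRF1, a factor known to act on immunoproteasome genes, was higher by 0.88 ± 0.04 after vehicle (adjusted p = 6.69e-12) and by 0.90 ± 0.04 under oxamate (adjusted p = 3.05e-12), and STAT2 by 0.44 ± 0.05 (adjusted p = 8.56e-07) and 0.59 ± 0.05 (adjusted p = 2.19e-08). With oxamate IRF1 was higher in parental cells, by 0.15 ± 0.04 (adjusted p = 0.00289), where all 3 immunoproteasome genes were called higher, and in resistant cells, by 0.17 ± 0.04 (adjusted p = 0.00434), where none was called. With oxamate in parental cells 2 of the 7 were called higher and 3 lower, against 28.3% and 30.4% of all genes. The part of these regulators in the levels of the subunits was not tested.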

How the data were processed

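Poly(A) RNA from 12 samples was sequenced after NEBNext Ultra preparation, which keeps no strand. The authors mapped reads to UCSC transcripts with Bowtie2 2.1.0 and estimated expression with RSEM 1.2.15 on hg38 (the submitters' processing notes), and they deposited the expected counts of 26475 genes without normalization. RSEM divides a read between transcripts that match it, and 11.6% of the values were not whole. STAR and featureCounts are named in the methods too, but the values, not all whole, were taken as RSEM estimates. The floor of 3 counts covers counting error only.

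Expected counts were rounded, filtered by filterByExpr and scaled by TMM factors in edgeR 4.0.16 (R 4.3.3). Quasi-likelihood tests (glmQLFit, glmQLFTest) compared the means of 4 groups in a fit to all 12 samples. SE is the log2 fold change divided by the square root of its F statistic. Genes were called at a Benjamini-Hochberg adjusted p under 0.05 over all 14582 genes, and the authors' threshold of an unadjusted p under 0.05 with a fold over 1.5 was counted beside it. CPM refers to TMM-scaled library sizes. Catalytic ratios were compared by exact two-sided permutation over samples. The scripts were tested on simulated data.

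Named with full statistics were the 6 catalytic genes and, per comparison, the 3 highest and 3 lowest called subunits whose replicates did not overlap, and other subunits where the text turns on them. From the other lists came the 2 genes with the smallest p in a comparison, and NFE2L1, NFE2L2, TAP1, POMP and PSME1 to PSME4. The genes, lists, motifs and tests were chosen with earlier results of these data known. Transcript lengths and exons came from GENCODE release 29 (principal transcript), and coordinates from RefSeq (GRCh38.p14), whose promoter windows matched 34 of 39 genes. The alternatives were RLE and upper-quartile factors, library size alone, no filter, a minimum mean count of 25, expected counts left unrounded, a replicate block, DESeq2 1.42.0, limma-voom from limma 3.58.1, only the groups compared, leaving out the 2 libraries that stood apart from their groups in nuclear-retained RNA, each library left out, and a pseudocount of 0.5 for the ratios. A further gene list is not reported here.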

Additional observations from a re-analysis of the deposited data

Results flagged for a closer look

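The difference between the oxamate responses of resistant and parental cells was tested itself in the edgeR model. At an adjusted p under 0.05 it was positive for 13 of the 37 subunit genes and negative for 4. Of all genes tested, 22.7% and 21.4% were called in the same order. The 6 genes named here are the 3 highest and 3 lowest of the subunits called, so their passing was fixed by the choice. On the log2 scale, resistant minus parental, the difference was -0.34 for PSMB9, -0.27 for PSMB10 and -0.22 for PSMB8, and 0.35 for PSMD12, 0.34 for PSMA3 and 0.28 for PSMA5. With library size alone the calls of PSMB10 (-0.16) and PSMB8 (-0.11) were lost, and that of PSMB8 also with DESeq2 (-0.22) and without any 1 of 5 libraries. Groups of 3 libraries are too small for a check of single outlying samples.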

How the results depend on the processing

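Each of the results was recomputed under the alternatives. With library size alone, which also moves the median of all genes, 7 subunits were called higher and 19 lower in resistant cells after vehicle (median -0.06), 22 higher and 8 lower under oxamate (median 0.14, a reversed sign), the difference between responses was positive for 25 and negative for 1 (median 0.19), and the median with oxamate in parental cells was -0.16. On that scale the sign also reversed for PSMB7 (0.01), PSMD12 (0.17), PSMA5 (0.04), PSMD6 (0.07), PSMD14 (0.11), PSMC2 (0.05), PSMD4 (0.05) and PSMB4 (0.01) between lines after vehicle. In all it reversed for 8 of the 37 subunits after vehicle, 16 under oxamate, 7 with oxamate in parental and 10 in resistant cells, and 8 in the difference between responses. Among the genes given with full statistics it reversed for PSMB7 (0.05), TAP1 (0.24) and PSME1 (0.01) between lines under oxamate, for TAP1 (-0.03) with oxamate in parental and PSMB9 (0.01) with oxamate in resistant cells, and for PSMB5 (0.07), PSMB6 (0.07) and PSMB7 (0.03) in the difference between responses. With upper-quartile factors the medians between lines were -0.20 after vehicle and -0.10 under oxamate, PSMB7 stood at 0.00 with oxamate in parental cells and PSMD12 at 0.02 between lines after vehicle. The number of subunits called lower with oxamate in resistant cells, 0 in the edgeR model over all 12 samples, was 1 with no filter, 2 with DESeq2, 5 with only the groups compared and 9 without the 2 libraries that stood apart from their groups in nuclear-retained RNA, where the difference between responses was negative for 8 and PSMB7 stood at 0.02 with oxamate in parental cells. The cause was not tested. Shares of all genes called were computed only for the edgeR model over all 12 samples, so counts under the alternatives have no share beside them.

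With each library left out in turn, 0 to 6 subunits were called lower with oxamate in resistant cells, the difference was negative for 2 to 6, and 5 to 8 were called higher in resistant cells under oxamate. With oxamate in parental cells PSMB6 ranged from -0.07 to 0.01 and PSMB7 from -0.03 to 0.02, reversing without replicate 1 of vehicle-treated parental cells and PSMB7 (0.02) also without replicate 3 of oxamate-treated parental cells. PSMB9 with oxamate in resistant cells ranged from -0.08 to 0.02, reversing without replicate 2 of vehicle-treated resistant cells.

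Same-numbered samples deviated together in only 3 of 18 pairs (correlation over 0.1, range -0.074 to 0.245), and the samples were not paired by number. These correlations cannot exclude a batch shared by replicates of the same number. MALAT1 was highest in replicate 3 of every group. With a replicate block 5 subunits were called lower with oxamate in resistant cells, and the other counts stayed within 1.5 times of those given.

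The PSMB8, PSMB9 and PSMB10 calls between lines held under all 23 alternatives in both comparisons. The ratios kept their size with a pseudocount of 0.5. Expression near the floor of 3 counts, as for PSMA8 and PSMB11, could not be measured at this depth.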
